A study of Rattus norvegicus with 6 samples.

Results

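The enzymes described here join aromatic acids to glycine or transfer an acetyl group to aromatic amines, and they were followed in rat liver through the array probes that carry their RefSeq accessions. The members are 9 of the 15284 genes that could be named on the array, chosen by 10 listed symbols, of which Acsm2a is a synonym of Acsm2. They have 14 of the 61657 non-control probes. The genes are 4 medium-chain acyl-CoA synthetases (Acsm1, Acsm2, Acsm3 and Acsm5, with 7 probes), 3 glycine N-acyltransferase genes (Glyat, Glyatl1 and Glyatl2, with 4 probes) and 2 arylamine N-acetyltransferases (Nat1 and Nat2, with 3 probes). The name Nat1 is also an old synonym of the amino acid transporter gene Slc38a3, whose probe was left out. All 14 probes were well above background on all 6 arrays, none was saturated, and all entered the test.

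The liver RNA came from 6 male Sprague-Dawley rats (Crl:CD(SD)), 5 weeks old when bought, with 1 single-colour array per rat. Of these, 3 were controls dosed with corn oil, and the other 3 received o-anthranilic acid, 1000 mg/kg/day. The labels give the dosing time as 9 weeks in the treatment protocol and as 28 days in the series design, so the duration behind each value is unsettled. Slide 1 carried 5 arrays, and the remaining one, anthranilic acid replicate 3, lay alone on slide 2, with a scan of its own. It lay in row 1 of its slide, as all corn oil arrays did on theirs, whereas anthranilic acid replicates 1 and 2 lay in row 2. Among the treated arrays, rat, slide and row therefore cannot be told apart for replicate 3. With replicate 3 left out, row 1 held only controls and row 2 only treated rats. Each member's difference is given with and without this array. The list medians and the profile distances further on include it.

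In the textbook scheme, a medium-chain acyl-CoA synthetase in the mitochondrial matrix activates a carboxylic acid such as benzoate to its coenzyme A thioester, and glycine N-acyltransferase then moves the acyl group to glycine. The product, hippurate in the case of benzoate, is excreted in urine, and liver and kidney are the main sites. Arylamine N-acetyltransferases are cytosolic enzymes that use acetyl-CoA to acetylate aromatic amines. Anthranilic acid (2-aminobenzoic acid) carries both an amino and a carboxyl group on its ring.

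The 3 promoter windows below belong to the members that showed the largest differences between arrays of a group or between groups, Acsm5, Acsm2 and Glyatl2. Acsm5 and Acsm2 are next to each other on chromosome 1 among protein-coding genes, and Acsm1 and Acsm3 lie in the same cluster. Glyatl1 and Glyat also adjoin each other on chromosome 1, with 2 protein-coding genes between Glyat and Glyatl2, and the annotated spans of Nat2 and Nat1 overlap on chromosome 16. Each window holds 300 bases of RefSeq sequence (build GRCr8, plus strand, 5′ to 3′), and capitals mark matches on either strand to 4 short motifs. These are the TATA box core TATAAA, the half-site GTTAAT of the liver factor HNF1, the nuclear receptor half-site AGGTCA and the core GCGTG of the Ah receptor element.
Acsm5 chr1:183302259-183302558: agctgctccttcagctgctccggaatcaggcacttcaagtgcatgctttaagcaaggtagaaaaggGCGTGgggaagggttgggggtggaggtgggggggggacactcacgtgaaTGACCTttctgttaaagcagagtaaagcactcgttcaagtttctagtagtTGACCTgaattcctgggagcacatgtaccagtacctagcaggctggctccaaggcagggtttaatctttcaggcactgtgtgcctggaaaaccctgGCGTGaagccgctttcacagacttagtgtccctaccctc
Acsm2 chr1:183347455-183347754: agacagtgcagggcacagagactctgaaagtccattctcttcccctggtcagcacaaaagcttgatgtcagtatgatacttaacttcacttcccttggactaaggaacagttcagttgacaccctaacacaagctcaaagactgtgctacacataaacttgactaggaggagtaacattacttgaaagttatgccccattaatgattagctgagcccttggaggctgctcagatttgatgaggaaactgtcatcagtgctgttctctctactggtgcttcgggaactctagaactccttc
Glyatl2 chr1:219231904-219232203: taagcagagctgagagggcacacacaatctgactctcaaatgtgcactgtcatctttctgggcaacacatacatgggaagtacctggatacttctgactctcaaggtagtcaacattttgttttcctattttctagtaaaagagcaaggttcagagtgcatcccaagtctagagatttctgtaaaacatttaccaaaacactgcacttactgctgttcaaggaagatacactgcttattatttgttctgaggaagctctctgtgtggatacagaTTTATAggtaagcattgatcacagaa
The Acsm5 window held 2 matches each to AGGTCA and GCGTG, which overlap with no other match. AGGTCA was found in 16.2% and GCGTG in 29.7% of the 33469 windows of this length. The Glyatl2 window held 1 match to TATAAA (14.2% of windows), and the Acsm2 window held none of the 4. That TATAAA match lay downstream of the annotated gene start, at position 24. So did 1 of the 2 GCGTG matches of Acsm5, at position 11. GTTAAT (7.45% of windows) was in none of the 3 windows. These are matches of letters and not measured sites.

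Signals are given as log2 of the background-subtracted signal relative to the array's 75th percentile, so that 0 is the 75th percentile of the array and 1 unit is a doubling. Probes differ in how brightly they bind, so levels are compared between rats at 1 probe and not between probes. Differences are anthranilic acid minus corn oil, with the standard error (SE) of the limma fit and 3 arrays per group. The share of non-control probes that exceeded background was 53.3% to 58.0% per array, and the hepatocyte gene Alb stood at 9.39 to 9.53 on all 6. Among cell type markers, all 4 measured of 6 lymphocyte genes had differences above 0, against 52% of all genes. Their summed signal, as multiples of the 75th percentile, was 0.910 to 1.1 on corn oil arrays and 1.70 to 1.80 on treated arrays, with Cd3e not above background on any array. The summed hepatocyte signal over 10 genes was 5112 to 5233 against 4822 to 4905. Single hepatocyte genes went both ways, with 7 differences below 0 and 3 above. Their median was -0.05 and the lowest was -0.57, at Apoa1. The summed signals overlapped between groups for Kupffer cell, endothelial, cholangiocyte and stellate markers. For kidney and pancreas only Ctrb1 of 6 genes was measured, at 0.358 to 0.451 in corn oil and 0.327 to 0.347 in treated rats. In bulk liver, a change in the number of cells of a type and a change in RNA per cell cannot be told apart.

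By limma, 0 of the 14 probes of the conjugation enzymes reached an adjusted p under 0.05, against 11 of all tested probes (0.0329%). Of the 14 probes, 7 had differences above 0 and 7 below, with a median of -0.02. At unadjusted p under 0.05 there were 3 of 14 (21.4%), against 12.2% of all tested probes. All 3 were higher in treated rats, where 5.72% of tested probes were higher and 6.52% lower at that threshold. With slide as a block 0 of 14 passed the adjusted threshold, against 0.0179% of all. The 2 groups did not overlap at 5 of the 14 probes (35.7%), against 20.3% of all. Several of these probes share a gene. Taking each gene by its brightest probe, 1 of 9 reached unadjusted p under 0.05 (11.1%, against 11.6% of 10257 genes, 5.47% higher and 6.15% lower) and 2 of 9 did not overlap (22.2%, against 19.8%).

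**Figure D1:**
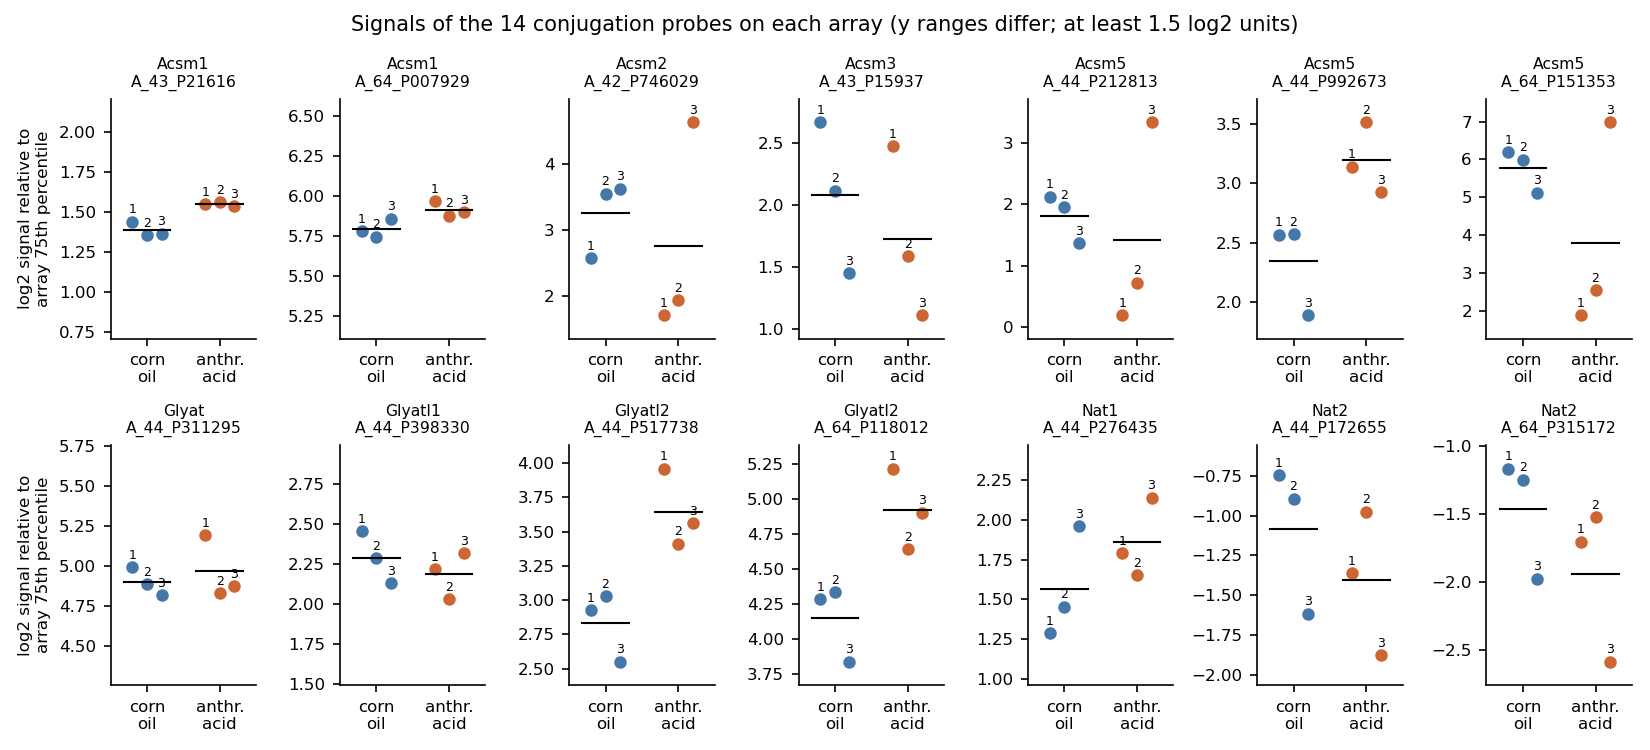
Log2 signal relative to the array's 75th percentile (y axis) at the 14 probes, for 3 corn oil arrays (blue) and 3 anthranilic acid arrays (orange) with the replicate number above each point and the group mean as a line. Acsm1 varied little and Glyatl2 stood higher on all 3 treated arrays, while at Acsm2 and at 2 of the 3 Acsm5 probes treated replicates 1 and 2 lay below every corn oil array and treated replicate 3 above every one.

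Glyatl2 had the clearest shift of a whole gene. In humans the product of the gene of this name joins glycine to long-chain acyl groups. At the brighter probe, A_64_P118012, the signals were 4.28, 4.33 and 3.84 in corn oil rats and 5.22, 4.64 and 4.90 in treated rats. All 3 treated rats lay above all 3 corn oil rats, by a difference of 0.77 (SE 0.20) or 1.70-fold, with a 95% interval of 1.22-fold to 2.37-fold and a limma adjusted p of 0.279. The other probe, A_44_P517738, read 2.93, 3.03 and 2.55 against 3.96, 3.41 and 3.56, again without overlap, a difference of 0.81 (SE 0.19, limma adjusted p = 0.247). The shifts of the 2 probes differed by 0.04 (SE 0.06), with a 95% interval of -0.11 to 0.19. Treated replicate 1 was the highest and corn oil replicate 3 the lowest at both. Without treated replicate 3 the differences were 0.78 and 0.85. Over the alternatives that refit the model, the limma adjusted p of the brighter probe ran from 0.236 to 0.516. The lymphocyte and hepatocyte sums and Ctrb1 above also separated the groups, as 19.8% of all genes did. Their part in this difference was not tested.

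Glyat, the main hepatic enzyme of hippurate formation, read 4.99, 4.89 and 4.82 in corn oil rats and 5.19, 4.83 and 4.87 in treated rats. The groups overlapped, with a difference of 0.07 (SE 0.12, limma adjusted p = 0.847). The 95% interval of -0.23 to 0.37 holds changes from 0.852-fold to 1.29-fold. The difference was -0.045 without treated replicate 1, 0.11 without treated replicate 3 and 0.14 without treated replicate 2. It was 0.023 after quantile normalization and 0.12 after median scaling, so its sign and size are not settled. Glyatl1, of which the human enzyme prefers glutamine as acceptor, read 2.46, 2.29 and 2.13 against 2.22, 2.03 and 2.32. Its difference was -0.10 (SE 0.12), with an interval of 0.757-fold to 1.15-fold. It was -0.17 without treated replicate 3, and leaving out each array in turn gave -0.18 (without corn oil replicate 3) to -0.02 (without corn oil replicate 1). Whether Glyatl2 differed from Glyat and Glyatl1 was not tested.

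**Figure D2:**
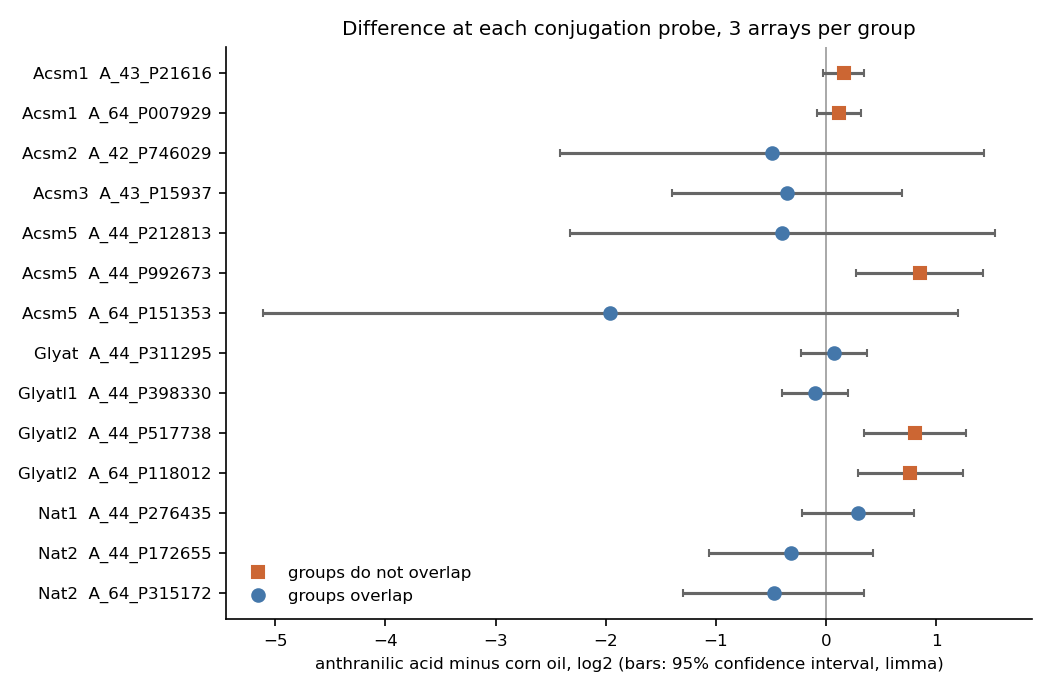
Log2 difference, treated minus control (x axis), at each of the 14 probes, with 95% confidence intervals from limma over 3 arrays per group. Orange squares mark probes whose groups did not overlap. Intervals are narrow for Acsm1 and Glyat and reach from -5.11 to 1.20 for the brightest Acsm5 probe.

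Among the synthetases, Acsm1 was the steadiest member. It is a mitochondrial medium-chain ligase found mainly in liver and kidney. Probe A_43_P21616 read 1.44, 1.35 and 1.36 in corn oil rats and 1.55, 1.56 and 1.53 in treated rats. Probe A_64_P007929 read 5.78, 5.75 and 5.86 against 5.97, 5.88 and 5.90. At both probes all treated rats lay above all corn oil rats, but the differences were only 0.16 (SE 0.08) and 0.12 (SE 0.08), with limma adjusted p of 0.445 and 0.567. Without treated replicate 3 they were 0.17 and 0.13. After quantile normalization the second, brighter probe was at only 0.02 and the first at 0.15. The residual SD within groups was 0.034 and 0.054, below those of all but 0.894% and 4.27% of tested probes. The larger of the 2 upper interval bounds is 1.27-fold.

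Acsm3, known in the rat as the SA gene from studies of hypertension, varied in both groups. It read 2.67, 2.12 and 1.46 in corn oil rats and 2.48, 1.59 and 1.11 in treated rats, with wide overlap and a difference of -0.35 (SE 0.43, limma adjusted p = 0.757). The difference was -0.05 without treated replicate 3 and -0.06 without corn oil replicate 1, against -0.73 without treated replicate 1 and -0.67 without corn oil replicate 3. Its residual SD of 0.651 was above that of 96.5% of tested probes.

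Acsm2, whose human counterparts activate benzoate, read 2.58, 3.55 and 3.62 in corn oil rats and 1.71, 1.95 and 4.63 in treated rats. No treated rat fell within the range of the corn oil rats, since replicates 1 and 2 were 2.90-fold and 2.47-fold below the corn oil mean and replicate 3 was 2.60-fold above it. The mean difference of -0.49 (SE 0.80, limma adjusted p = 0.828) therefore stands for no single rat. It was -1.42 with slide as a block (limma adjusted p = 0.327), which is also the value without treated replicate 3. It was 0.038 without treated replicate 1 and -0.08 without treated replicate 2. The treated rats had an SD of 1.62 at this probe, and 149 of the tested probes had a larger one.

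Acsm5, a less studied mitochondrial member of the synthetase family, had 3 probes, all carrying the same RefSeq accession, that went different ways. RefSeq lists 6 transcripts for the gene, 1 curated and 5 predicted, and where in the transcript each probe binds was not analysed here. At the brightest probe, A_64_P151353, corn oil rats read 6.18, 5.99 and 5.12 and treated rats 1.89, 2.55 and 6.98. Treated replicates 1 and 2 were 14.7-fold and 9.30-fold below the corn oil mean, whereas replicate 3 was 2.33-fold above it. Only 16 of the tested probes had a larger SD among treated rats than the 2.77 of this probe, while its corn oil SD was 0.57. The difference was -1.96 (SE 1.30, limma adjusted p = 0.560), and -3.55 with slide as a block (limma adjusted p = 0.119). It was -0.999 without treated replicate 1 and -1.33 without treated replicate 2.

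The second Acsm5 probe, A_44_P212813, had the same order of rats with a smaller range. It read 2.13, 1.95 and 1.36 in corn oil rats and 0.20, 0.73 and 3.34 in treated rats. Replicates 1 and 2 were 3.07-fold and 2.13-fold below the corn oil mean and replicate 3 was 2.87-fold above it. Its difference was -0.39 (SE 0.80, limma adjusted p = 0.865), -1.35 with slide as a block (limma adjusted p = 0.287), 0.22 without treated replicate 1 and -0.05 without treated replicate 2.

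The third, A_44_P992673, read 2.57, 2.57 and 1.89 in corn oil rats and 3.14, 3.52 and 2.93 in treated rats. All 3 treated rats lay above all corn oil rats, with a difference of 0.85 (SE 0.24, limma adjusted p = 0.306) or 1.80-fold, and 0.99 without treated replicate 3. In the rats where the other probes were lowest this one was highest, at 0.80 and 1.17 log2 units above the corn oil mean, against 0.58 in treated replicate 3.

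**Figure D3:**
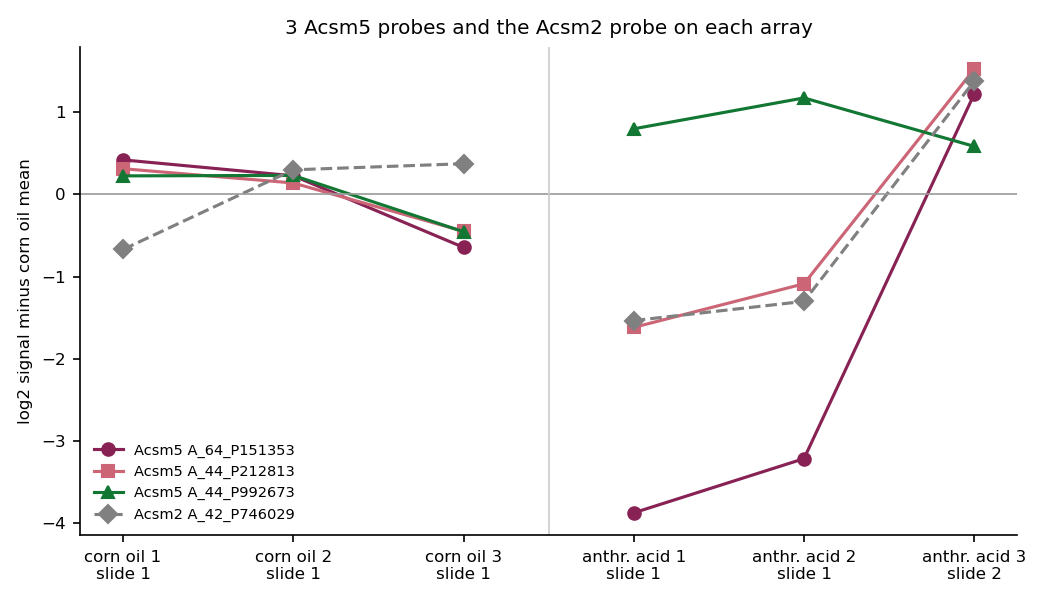
Log2 signal minus the corn oil mean of the same probe (y axis) on the 6 arrays (x axis, with the slide), for the 3 Acsm5 probes and the Acsm2 probe. On corn oil arrays the 3 Acsm5 probes moved together, on treated replicates 1 and 2 they spread from -3.88 to 1.17, and on treated replicate 3 they lay between 0.58 and 1.52.

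The gap between 2 probes of a gene depends on how brightly each binds, so only the change of the gap with treatment was tested, over all 9801 pairs of tested probes of 1 gene. On corn oil arrays the log2 gap between A_44_P992673 and A_64_P151353 was -3.62, -3.42 and -3.23. It was 1.25 and 0.97 in treated replicates 1 and 2, and -4.06 in treated replicate 3. The gap was thus higher than in corn oil rats in the 2 treated rats on slide 1 (row 2), but not in the one on slide 2 (row 1). Its sign has no meaning of its own, because the brightness of each probe sets where 0 lies. Over all 6 arrays the gap shifted by 2.81 (SE 1.41, limma adjusted p = 0.718), and 0 of the 6 pairs of member probes passed, against 0.0306% of all pairs. At unadjusted p under 0.05 there was 1 of 6, the Acsm5 pair A_44_P212813 and A_64_P151353, against 7.48% of all pairs.

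With slide as a block, which leaves the comparison to the 5 arrays of slide 1, all 3 Acsm5 pairs passed. They are among the 10 of all 9801 pairs (0.102%) that passed in this fit. The gap between A_44_P992673 and A_64_P151353 then shifted by 4.53 (SE 0.15, limma adjusted p = 0.00423). The gap between A_44_P212813 and A_44_P992673 fell by 2.34 (SE 0.09, limma adjusted p = 0.00611), and that between A_44_P212813 and A_64_P151353 rose by 2.19 (SE 0.12, limma adjusted p = 0.0198). The 3 pairs are built from 3 probes and are not independent of each other. This result rests on 2 treated rats, and treatment cannot be told apart from array row on that slide, where row 1 held controls and row 2 treated rats. The pairs of Acsm1, Glyatl2 and Nat2 shifted by 0.04, 0.07 and 0.07 in the same fit, with limma adjusted p from 0.869 to 0.951.

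At the N-acetyltransferase genes the groups overlapped at all 3 probes. Nat1 read 1.29, 1.45 and 1.96 in corn oil rats and 1.79, 1.65 and 2.14 in treated rats, a difference of 0.29 (SE 0.21, limma adjusted p = 0.590). Nat2 probe A_44_P172655 read -0.75, -0.89 and -1.61 against -1.36, -0.98 and -1.87, and A_64_P315172 read -1.17, -1.25 and -1.98 against -1.70, -1.53 and -2.58. The Nat2 differences were -0.32 (SE 0.31) and -0.47 (SE 0.34), with limma adjusted p of 0.689 and 0.587. These sizes depended on single arrays. Without treated replicate 3 the differences were 0.15 for Nat1 and -0.08 and -0.15 for Nat2, and without corn oil replicate 3 they were 0.49, -0.58 and -0.73. Without corn oil replicate 1 Nat1 was at 0.15 and the brighter Nat2 probe at -0.15. Replicate 3 of each group was the highest of its group at Nat1 and the lowest at both Nat2 probes. The interval for Nat1, 0.860-fold to 1.74-fold, and that for the brighter Nat2 probe, 0.480-fold to 1.34-fold, hold changes in either direction. The annotated spans of the 2 genes overlap, and whether their probes share signal was not tested.

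**Figure D4:**
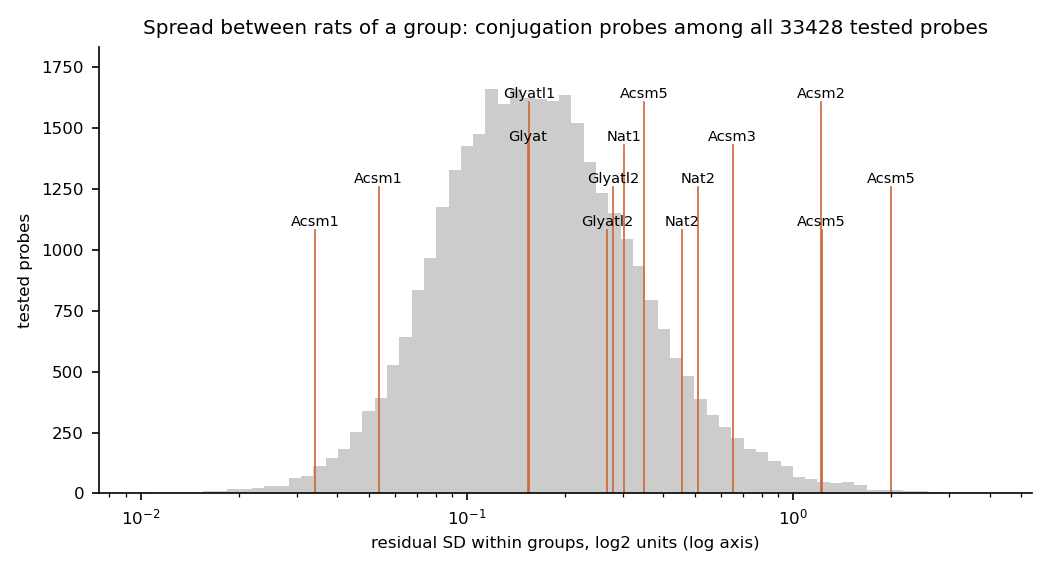
Residual SD within groups on a log axis (x axis, log2 units) for all tested probes (grey histogram, y axis counts probes), with the 14 conjugation probes as orange lines labelled by gene. Acsm1 lies at the low end, Glyat and Glyatl1 near the median of 0.162, and Acsm2, Acsm3 and 2 Acsm5 probes in the upper tail.

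The spread between arrays of a group thus differed widely among the members. Residual SD was above the 90th percentile of tested probes at 6 of the 14, namely Acsm2, Acsm3, both Nat2 probes and 2 Acsm5 probes. It includes treated replicate 3, for which rat, slide and row cannot be told apart. Without that array the SE of the difference was 0.35 at Acsm2, against 0.80 with it. At Acsm5 A_44_P212813 it was 0.28 against 0.80, and at A_64_P151353 0.38 against 1.30. Glyat and Glyatl1 had residual SDs of 0.153 and 0.155, against a median of 0.162 over tested probes. Among corn oil rats, replicate 3 was the lowest at 10 of the 14 probes, several of which share a gene. The share over all tested probes was not counted, so this is not read as a trait of the members.

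The 5 genes outside the list whose profile over the 6 arrays was nearest to that of Acsm5 A_64_P151353, by root mean square distance after centring each profile, were Dhrs7l1, St8sia1, Rhpn2, Lrtm2 and Cdh17. The nearest, the short-chain dehydrogenase gene Dhrs7l1, lay at a distance of 0.776 log2 units and read 3.73, 3.49 and 3.24 in corn oil rats and -0.28, 0.03 and 2.69 in treated rats. Here too treated replicates 1 and 2 were low, while replicate 3 stayed below the corn oil rats. Cdh17, the liver-intestine cadherin, read 3.38, 3.76 and 2.84 against 1.53, 0.02 and 3.03 (distance 1.07). The distances of the others ran from 0.953 to 1.05. St8sia1, a sialyltransferase gene, was well above background on only 1 treated array. Distances over 6 arrays describe likeness in these rats only.

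Genes that feed or surround these reactions gave 0 calls at adjusted p under 0.05 in each of 4 lists, as did all 10257 genes (0%). Related ligases and acyltransferases had a median of 0.18 over 13 measured of 18, against 0.01 over all genes. Differences were above 0 at 10 of them (76.9%), against 52% of all genes. These counts include Glyctk (0.19), a glycerate kinase gene that is neither a ligase nor an acyltransferase. At unadjusted p under 0.05 there were 2 (15.4%, against 11.6% of all genes). These were the long-chain ligase Acsl5, at 3.70 to 4.02 in corn oil and 4.16 to 4.46 in treated rats (difference 0.44, SE 0.13, limma adjusted p = 0.308), and the mitochondrial acetyl-CoA synthetase Acss1 (0.37, SE 0.15). Acsm4 and Nat3 were not above background on any array, and Glyatl3 on 2 of 6.

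Glycine supply and use had a median of 0.21 over 18 measured of 20 genes. Of these, 14 were above 0 (77.8%, against 52% of all genes), and 5 were at unadjusted p under 0.05 (27.8%, against 11.6%). Psat1, the aminotransferase of serine synthesis, read -1.23 to -0.56 in corn oil rats and 0.89, -0.08 and 1.35 in treated rats, without overlap (1.65, SE 0.38, limma adjusted p = 0.240). Sardh, which releases glycine from sarcosine, read 0.86 to 1.02 against 1.25 to 1.55 (0.43, SE 0.11, limma adjusted p = 0.279). The other 3 are named after their values were seen. They were Gcat (0.32) and Pipox (0.49), of glycine and sarcosine turnover, and Alas1 (-0.65), which uses glycine for heme synthesis.

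Coenzyme A and acetyl-CoA supply had a median of 0.01 over 15 measured of 16 genes, with 10 above 0 (66.7%). At unadjusted p under 0.05 there was 1 (6.67%), the coenzyme A hydrolase gene Nudt19 (0.41, SE 0.12, limma adjusted p = 0.308). Acly, which makes cytosolic acetyl-CoA, was at 0.44 (SE 0.19). Amide and ester hydrolysis had a median of 0.15 over 8 measured of 9 genes, with 6 above 0 (75%) and 1 at unadjusted p under 0.05 (12.5%). This was Aadac, a microsomal enzyme that removes acetyl groups from aromatic amides, with 3.28 to 3.54 in corn oil rats and 3.77 to 3.92 in treated rats (0.48, SE 0.10, limma adjusted p = 0.230). Pter was at -0.26 (SE 0.14). The lists were described by these counts and medians and were not tested as sets.

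**Figure D5:**
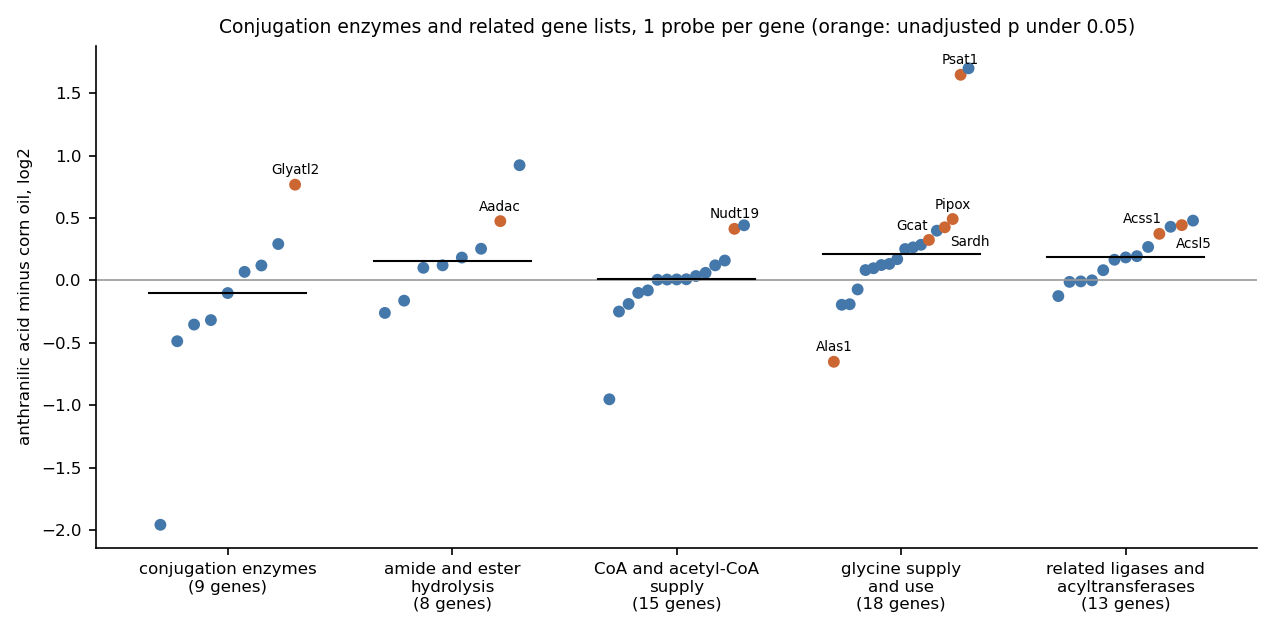
Log2 difference, treated minus control (y axis), for 1 probe per gene, in the conjugation enzymes and 4 related lists (x axis), with the list median as a line and genes at unadjusted p under 0.05 in orange with their names. Medians run from -0.10 in the conjugation enzymes to 0.21 in glycine supply and use, and no gene passed the adjusted threshold.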

How the data were processed

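The members, lists and tests were chosen with earlier results of these data known. Spot intensity values were deposited by the authors as 1 Agilent Feature Extraction file per rat (version 10.7.1.1 and grid build rn4 per the file headers, 10.7 per the submitters' processing notes), background-subtracted and spatially detrended, with no normalization between arrays. The deposited table of the whole series holds a ratio of that signal to 1 value per array near its 75th percentile, with column medians of 0.0887 to 0.0976. The sources used here do not state how it was set. It served as an alternative.

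For each array log2 of the processed intensity minus its 75th percentile over non-control probes was taken. Outlier-flagged spots (14 of 369942) were left out. A probe was tested if well above background on all 3 arrays of a group, with at least 2 unflagged spots in each. The 2 groups were tested by limma 3.58.1 under R 4.3.3 (lmFit, eBayes, two-sided, prior degrees of freedom 2.30, residual 4). Benjamini-Hochberg adjustment covered every tested probe, at 0.05. The same fit was run on differences between probes of 1 gene. A gene was represented by its brightest tested probe. Accessions were matched without version to RefSeq (GRCr8), which named 44.5% of probes. Named genes were all members, the 2 smallest p in each list and the 5 profiles nearest to the member with the largest SD. On simulated data over 33425 probes the fit recovered 69.2% of changes of 1 log2 unit and 3.4% of changes of 0.5. These are averages over tested probes drawn at random, with normal noise. Recovery at the member probes, whose spread differed widely, was not worked out. The number of arrays limits the precision.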

Additional observations from a re-analysis of the deposited data

How the results depend on the processing

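No member probe passed at adjusted p under 0.05 under any of the 17 alternative fits, and 0 passed at adjusted p under 0.1, against 3 at unadjusted p under 0.05. No gene of the 4 related lists passed in any of these fits by limma. The count over all tested probes was 11, with 50 under normexp background correction, 21 with median scaling, 2 with no filter on dim probes, 2 with only probes above background on all 6 arrays, 6 with slide as a block, 29 with array weights and 45 with eBayes set to trend and robust. It was 2 to 8 on leaving out 1 array, 50 at adjusted p under 0.1 and 4092 at unadjusted p under 0.05. Pairs of member probes past the threshold numbered 0, and 3 with slide as a block, 0 to 3 on leaving out 1 array. The 3 appeared without anthranilic acid replicate 3, which is the same comparison. Of the gene differences, 2 turned sign, both without anthranilic acid replicate 1: Acsm2 (0.038, with -1.42 to 0.038 on leaving out 1 array) and Glyat (-0.045, with -0.045 to 0.14). The Acsm1 difference kept its sign but was 0.02 after quantile normalization. The causes were not tested.

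With the replicate number as a block, 2 probes passed over all and 0 member probes. Over the tested probes, same-numbered rats did not deviate together (r = 0.07, -0.05 and -0.04), so the numbers were not taken as pairs. Members differed in this. With the block the SE fell from 0.43 to 0.11 at Acsm3 and from 0.34 to 0.12 at Nat2 A_64_P315172. The limma adjusted p there was 0.462 and 0.405. The SE rose at both Acsm1 probes, at Glyatl1 and at Acsm5 A_44_P212813, and fell at every other member probe. How often it fell over all tested probes was not counted. All 14 probes were well above background on every array. The normexp alternative starts from another signal, the median of the spot, and adds an offset of 50 as well as correcting background. These steps were not told apart. At Nat2, the member with the lowest signals, the differences were -0.32 (SE 0.31) and -0.47 (SE 0.34) in the main fit. Under normexp they were -0.27 (SE 0.22) and -0.35 (SE 0.22). The brighter probe Acsm1 A_43_P21616 also moved, from 0.16 to 0.11.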
